A study of Mus musculus with 12 samples.

Results

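The genes described here are the Wnt ligands, their receptors and co-receptors, the R-spondins, the secreted antagonists and the intracellular Axin and Tcf/Lef genes of the mouse aortic valve at postnatal day 10. They were found by gene symbol in the authors' deposited table, joined by gene identifier to the deposited counts. The symbols kept were those starting with Wnt, Fzd, Sfrp, Dkk or Rspo and a digit, those starting with Tcf7, and Lgr4, Lgr5, Lgr6, Lrp5, Lrp6, Frzb, Wif1, Axin1, Axin2 and Lef1. The rule found 41 genes of 20620 in the count table, of which 13959 carry a symbol in the authors' table. They are 10 Wnt ligands, 10 Frizzled receptors, 2 Lrp co-receptors, 2 R-spondins, 3 Lgr receptors, 8 secreted antagonists, 2 Axin genes and 4 Tcf/Lef genes. All 41 passed the filter on low counts and were tested. The authors' table holds no gene with a mean normalized signal under 20.03. The rule thus also selects on level, and passing the filter was likely from the start.

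Messenger RNA was sequenced from 12 pools of 3 aortic valves each, 4 pools per group, all taken at postnatal day 10. The first group is labelled Notch1+/-;Gata5-/- and the second Notch1+/-;Gata5+/-, so both carry the Notch1+/- label and differ in Gata5. The third group is wildtype. Below, the first 2 groups are called the Gata5-/- labelled and the Gata5+/- labelled libraries. Both differ from wildtype in the Notch1 and the Gata5 label, so the 2 genes cannot be told apart in any comparison with wildtype. Notch1 is a cell surface receptor activated by ligands on neighbouring cells, and Gata5 is a GATA-family transcription factor active in the forming heart. The series title names congenital aortic valve disease as the question. The sources used here do not give the alleles, the strain or the sex of the animals. Library values below stand in the order of replicates 1 to 4.

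Total counts ranged over the 12 libraries from 13866604 to 25059653. Gata5 had 0 counts in each of the 4 Gata5-/- labelled libraries, 97, 112, 98 and 15 counts in the Gata5+/- labelled libraries, and 56, 18, 46 and 19 counts in wildtype. Notch1 averaged 185 ± 29.5 CPM in the Gata5-/- labelled libraries, 172 ± 20.6 CPM in the Gata5+/- labelled libraries and 128 ± 26.4 CPM in wildtype (SD, n = 4 each). CPM are counts scaled to a common library total by TMM. The Notch1 counts were thus not lower in the libraries that carry the Notch1+/- label, and the genotypes are given here as labels. Replicate 3 of the Gata5-/- labelled libraries stood apart, with 6000 genes at 0 and a mean Spearman correlation of 0.891 with the other libraries. Wildtype replicate 2 came next, with 3208 genes at 0 and a correlation of 0.923, against 0.93 to 0.947 in the other 10 libraries. The summed level of 8 valve interstitial markers was 22165 to 25014 CPM in the Gata5-/- labelled libraries, 22270 to 26572 CPM in the Gata5+/- labelled libraries and 20040 to 24815 CPM in wildtype. Heart muscle markers were also high, with 10 genes summing to 24179 to 56654 CPM over the 12 libraries. The sum was lowest in wildtype replicate 2, at 24179 CPM, and in replicate 1 of the Gata5+/- labelled libraries, at 29593 CPM. All others held 39017 to 56654 CPM. Since the pools hold several cell types, fewer cells of a type and less RNA per cell cannot be told apart in any value below.

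Wnt proteins are secreted lipid-modified ligands that bind Frizzled receptors together with the co-receptors Lrp5 and Lrp6. In the canonical branch this stops the Axin complex from marking β-catenin for destruction, and β-catenin then joins Tcf/Lef factors on DNA. In other branches the same receptors act on cell polarity and calcium. Sfrp proteins, Frzb and Wif1 bind Wnt ligands outside the cell, most Dkk proteins block Lrp5 and Lrp6, and R-spondins acting through Lgr receptors keep Frizzled receptors on the cell surface. In the heart, Wnt signalling is known for its part in the growth of the valve cushions and in the patterning of their matrix.

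No gene of the 41 passed the test in any of the 3 comparisons, and the 3 with an edgeR unadjusted p under 0.05 were Wif1, Lgr6 and Frzb. In DESeq2 Frzb missed that threshold and Sfrp5 passed it. The promoter windows of the 3 genes from the main test are printed here. Each runs from 250 bases before to 50 bases after the transcription start in RefSeq (GRCm38.p6), 5′ to 3′ on the gene's own strand. Capitals mark TGGGAA, the core word bound by RBPJ, the DNA-binding partner of Notch.

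Wif1 (chr10:121033754-121034053, plus strand): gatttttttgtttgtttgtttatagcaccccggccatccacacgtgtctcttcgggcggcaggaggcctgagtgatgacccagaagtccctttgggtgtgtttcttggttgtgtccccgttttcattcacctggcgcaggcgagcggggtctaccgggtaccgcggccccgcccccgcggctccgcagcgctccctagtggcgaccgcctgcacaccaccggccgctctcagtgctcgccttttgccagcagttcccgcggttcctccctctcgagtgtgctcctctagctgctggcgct
Lgr6 (chr1:135105227-135105526, minus strand): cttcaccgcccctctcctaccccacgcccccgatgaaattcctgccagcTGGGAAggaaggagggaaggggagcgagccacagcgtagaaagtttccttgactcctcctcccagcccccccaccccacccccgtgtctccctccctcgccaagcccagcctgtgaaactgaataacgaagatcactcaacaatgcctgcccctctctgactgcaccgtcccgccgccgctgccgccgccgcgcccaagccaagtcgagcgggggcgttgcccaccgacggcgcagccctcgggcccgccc
Frzb (chr2:80447347-80447646, minus strand): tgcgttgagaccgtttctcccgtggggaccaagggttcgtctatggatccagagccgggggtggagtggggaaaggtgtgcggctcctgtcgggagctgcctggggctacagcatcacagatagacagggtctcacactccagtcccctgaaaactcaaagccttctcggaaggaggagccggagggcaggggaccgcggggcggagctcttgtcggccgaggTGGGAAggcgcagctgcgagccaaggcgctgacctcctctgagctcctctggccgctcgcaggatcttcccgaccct

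Counted from the transcription start, the word TGGGAA begins at -201 in the Lgr6 window and at -27 in the Frzb window, and the Wif1 window holds it on neither strand. Of the 41 genes, 28 had an entry in the promoter table, with 36 windows among them. On either strand, TGGGAA stood in 8 of the 36 windows (22.2%) and in 25.6% of all 32851 windows of the table. Windows of a gene with several starts can overlap, and Lef1 had the word at +13, +39 and +44 in separate windows. The GATA word AGATAA stood in 4 of the 36 (11.1%) and in 11.2% of all. The TCF/LEF words, CTTTG followed by AA, AT, TA or TT, stood in 5 of the 36 (13.9%) and in 16.9% of all. The shares among the 36 windows were thus no higher than over the whole table for any of these words. A match of letters is a description and not a site of binding.

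Levels are given next per kilobase of exon (CPM per kb), so that genes of different length can be set side by side. Of the 41 genes, 7 averaged at least 100 CPM over the 12 libraries, 19 averaged 10 to 100 CPM and 15 averaged under 10 CPM. At 0 in at least 1 library were 6 genes (Wnt7a, Rspo1, Lgr5, Sfrp5, Sfrp4 and Tcf7), and all 6 were at 0 in replicate 3 of the Gata5-/- labelled libraries. A library of this depth that holds 0 counts still allows 3, which is 0.12 to 0.216 CPM. The secreted antagonists had the highest summed level of the 8 roles in every group. They summed to 280 ± 31.6 CPM per kb in the Gata5-/- labelled libraries, 287 ± 32.2 CPM per kb in the Gata5+/- labelled libraries and 294 ± 35.98 CPM per kb in wildtype (SD, n = 4 each). The Wnt ligands summed to 51.9 ± 6.16 CPM per kb with the Gata5-/- label, 51.03 ± 7.04 CPM per kb with the Gata5+/- label and 45.99 ± 7.17 CPM per kb in wildtype. The Frizzled receptors summed to 98.9 ± 10.7 CPM per kb with the Gata5-/- label, 104.8 ± 4.93 CPM per kb with the Gata5+/- label and 100.5 ± 8.75 CPM per kb in wildtype. For the antagonists and the ligands the gaps between group means were smaller than the SD of each group. For the Frizzled receptors the gap between both labelled groups was larger than the SD of the Gata5+/- labelled libraries and smaller than that of the Gata5-/- labelled ones.

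**Figure D1:**
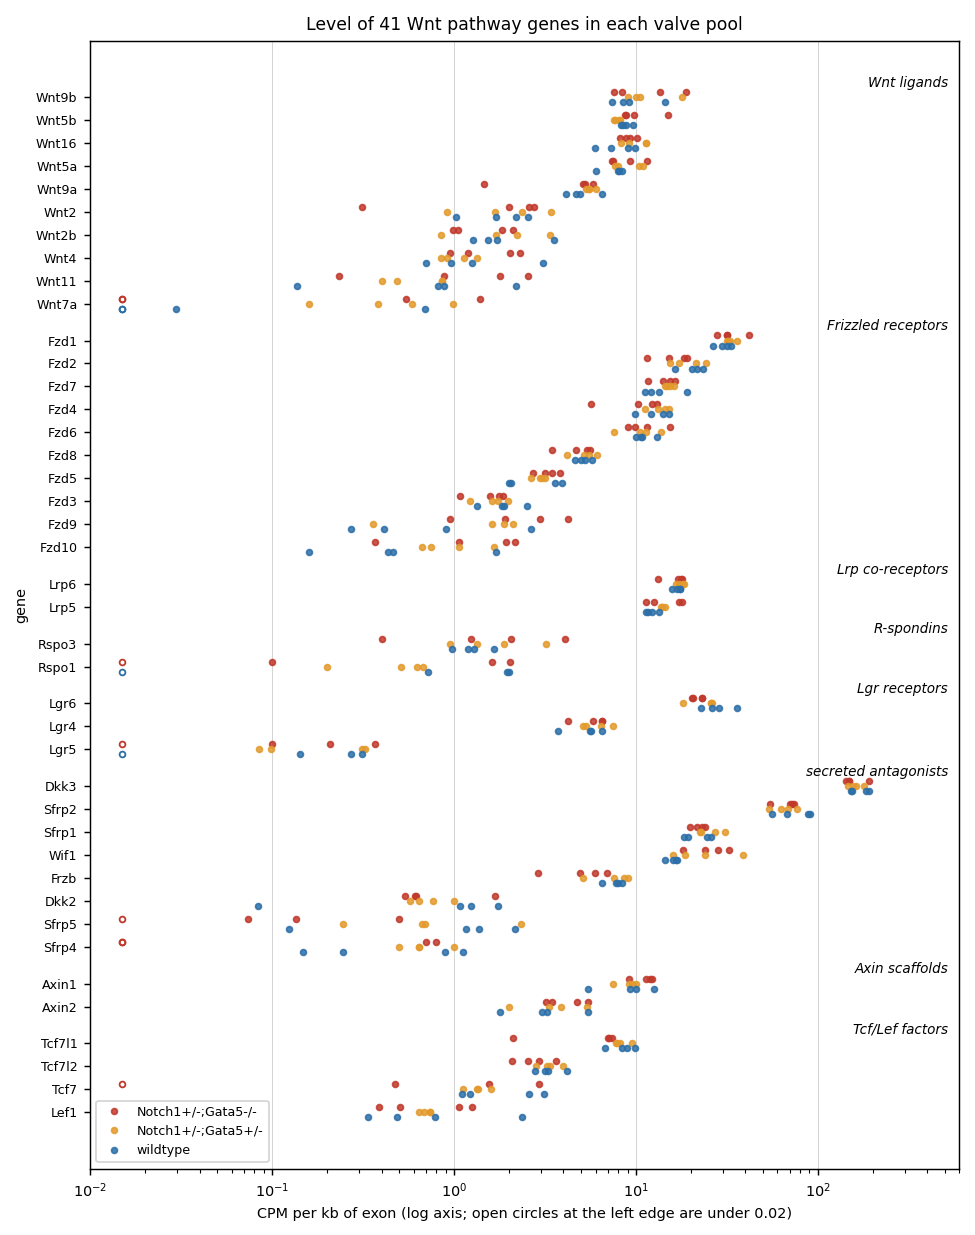
Level of each of the 41 genes in each of the 12 libraries, in CPM per kb of exon on a log axis, with genes grouped by role and coloured by group. Dkk3 and Sfrp2 lie highest, at means of 163 and 69.4 CPM per kb, the points of the 3 groups overlap for nearly every gene, and the low genes spread most between libraries of a group.

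For the Notch1+/-;Gata5-/- label against wildtype, 0 of the 41 genes were called at an adjusted p under 0.05, where 0.0258% of the 19346 genes tested were called. DESeq2 also called none of the 41, where it called 49 of all genes (0.24%), and the authors' deposited table, whose fold changes match this comparison, marks none of them among its 33 marked genes of 13959. At an edgeR unadjusted p under 0.05, 1 gene was higher (Wif1), against 2.04% of all genes, and 2 were lower (Lgr6 and Frzb), against 3.36% of all genes. The 41 genes come only from the 13959 of the authors' table, while the shares over all genes, here and below, include others. The 41 and all genes were not matched for level. With groups that do not overlap, 1 gene was higher, again Wif1, against 0.936% of all genes, and 0 were lower, against 2.0%. Log2 fold changes were positive for 21 genes and negative for 20, with a median of 0.003, while the median over all genes tested was -0.035. The lowest adjusted p of the 41 was 0.839 in edgeR, shared by Wif1 and Lgr6.

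For the Notch1+/-;Gata5+/- label against wildtype, edgeR called 0 of the 41 and 0.0% of all genes, with 156 genes higher and 86 lower at an unadjusted p under 0.05, and DESeq2 called 8 genes (0.0391%), none of them among the 41. At an unadjusted p under 0.05, 1 of the 41 was higher, again Wif1, against 0.806% of all genes, and 0 were lower, against 0.445%. Groups without overlap placed 1 gene higher (Lrp5), against 1.33% of all genes, and 1 lower (Wnt5b), against 0.915%. The median log2 fold change of the 41 was 0.03, against 0.002 over all genes, with 24 positive and 17 negative.

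Between both Notch1+/- labelled groups, Gata5-/- against Gata5+/-, edgeR called 0 of the 41 and 0.0% of all genes, and DESeq2 called 13 genes (0.0648%), none of them among the 41. At an unadjusted p under 0.05 there were 0 of the 41 in either direction, against 213 of all genes higher (1.1%) and 403 lower (2.08%). Groups without overlap placed 1 gene higher (Wnt5b), against 0.703% of all genes, and 1 lower (Tcf7l1), against 2.03%. The median log2 fold change was -0.06, against -0.042 over all genes, with 17 positive and 24 negative. The 3 comparisons share their libraries in pairs, so these counts are not independent of each other.

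**Figure D2:**
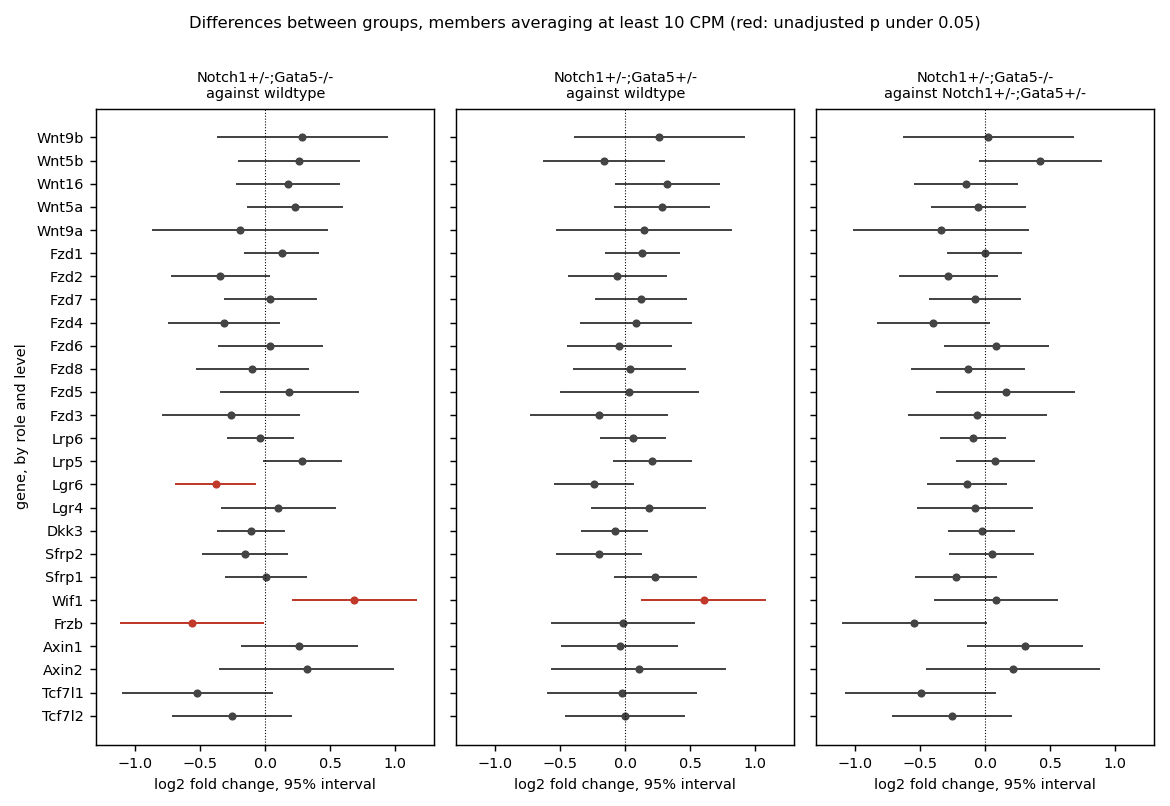
Log2 fold change with its 95% interval from the edgeR fit for the 26 genes averaging at least 10 CPM, in the 3 comparisons, with an unadjusted p under 0.05 in red. Wif1 at 0.69, Lgr6 at -0.38 and Frzb at -0.56 are red for Gata5-/- against wildtype, Wif1 at 0.60 is red for Gata5+/- against wildtype, and no gene is red between both labelled groups.

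Among the ligands, Wnt9b had the highest mean level per length, at 11.3 CPM per kb. It is made by the endocardium, the inner cell layer of the heart. Wnt9b had 38.0, 61.0, 84.8 and 34.3 CPM in the Gata5-/- labelled libraries, 80.9, 47.3, 40.7 and 45.2 CPM in the Gata5+/- labelled libraries, and 38.5, 65.3, 33.5 and 41.2 CPM in wildtype. The highest libraries were replicate 3 with the Gata5-/- label, replicate 1 with the Gata5+/- label and replicate 2 of wildtype, and the groups overlap. Each also had the lowest heart muscle marker sum of its group, at 39017, 29593 and 24179 CPM. The part of heart muscle in the Wnt9b values was not tested. Its log2 fold change was 0.29 (95% interval -0.36 to 0.94) for Gata5-/- against wildtype and 0.26 (-0.39 to 0.91) for Gata5+/- against wildtype. Without replicate 3 of the Gata5-/- labelled libraries the first value was 0.002, and without replicate 1 of the Gata5+/- labelled libraries the second was -0.006.

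Wnt5b, Wnt16 and Wnt5a followed at 9.09, 9.08 and 8.59 CPM per kb, within the SD of each other. Wnt5a and Wnt5b are ligands mostly known for signalling without β-catenin. Wnt5b had 25.9, 23.6, 39.8 and 23.0 CPM in the Gata5-/- labelled libraries, 21.5, 21.7, 20.3 and 20.1 CPM in the Gata5+/- labelled libraries, and 23.5, 21.9, 22.5 and 25.6 CPM in wildtype. The Gata5-/- labelled libraries were all above the Gata5+/- labelled ones, and the Gata5+/- labelled ones were all below wildtype. The fitted difference (log2) was 0.42 ± 0.22 (SE) between both labelled groups, with an edgeR adjusted p of 1.0, and was 0.22 without replicate 3 of the Gata5-/- labelled libraries. Against wildtype it was 0.26 ± 0.22 for Gata5-/- (0.06 without that library) and -0.16 ± 0.22 for Gata5+/-.

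Wnt5a had 90.0, 72.3, 58.4 and 58.1 CPM in the Gata5-/- labelled libraries, 85.2, 60.2, 81.7 and 62.5 CPM in the Gata5+/- labelled libraries, and 65.4, 63.2, 46.9 and 62.3 CPM in wildtype. The highest libraries were all in the labelled groups, the lowest in wildtype, and the groups overlap. The log2 fold change was 0.23 ± 0.17 for Gata5-/- against wildtype, 0.28 ± 0.17 for Gata5+/- against wildtype and -0.05 ± 0.17 between both labelled groups. Wnt16, a ligand known from bone, had 40.5, 35.7, 44.2 and 38.3 CPM in the Gata5-/- labelled libraries, 49.7, 40.01, 49.8 and 36.3 CPM in the Gata5+/- labelled libraries, and 31.8, 39.4, 26.1 and 43.2 CPM in wildtype. Of the wildtype libraries, 2 lay below all labelled ones and 2 among them, and the 2 highest libraries were Gata5+/- labelled. Its log2 fold change was 0.32 ± 0.19 for Gata5+/- against wildtype, with an edgeR unadjusted p of 0.103, and 0.18 ± 0.19 for Gata5-/- against wildtype.

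The other 6 ligands lay lower. Wnt9a averaged 5.02 CPM per kb, and Wnt2, Wnt2b, Wnt4, Wnt11 and Wnt7a averaged 1.96, 1.85, 1.39, 1.01 and 0.399 CPM per kb. Wnt9a was lowest in replicate 3 of the Gata5-/- labelled libraries, at 4.89 CPM, against a mean of 16.8 ± 3.40 CPM in wildtype (SD, n = 4). Wnt7a had 0 counts in 2 Gata5-/- labelled and 2 wildtype libraries, and the standard error of its fold change was the highest of the 41, at 1.82 for Gata5-/- against wildtype. Of all 10 ligands, 8 had a positive log2 fold change for Gata5-/- against wildtype, with a median of 0.20, and 4 for Gata5-/- against Gata5+/-, with a median of -0.09.

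Among the Frizzled receptors, Fzd1 was the highest per length at 32.3 CPM per kb, followed by Fzd2, Fzd7, Fzd4 and Fzd6 at 18.7, 14.5, 12.3 and 11.1 CPM per kb. Fzd8, Fzd5, Fzd3, Fzd9 and Fzd10 averaged 5.06, 3.04, 1.70, 1.69 and 1.04 CPM per kb. Fzd1 had 133, 118, 175 and 132 CPM in the Gata5-/- labelled libraries, 151, 133, 136 and 139 CPM in the Gata5+/- labelled libraries, and 125, 111, 133 and 140.3 CPM in wildtype. The groups overlap, and replicate 3 of the Gata5-/- labelled libraries was the highest of the 12. Fzd1 had a log2 fold change of 0.13 (95% interval -0.15 to 0.41) for Gata5-/- against wildtype and -0.004 (-0.28 to 0.28) between both labelled groups.

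Fzd2 had 42.3, 56.1, 69.98 and 67.4 CPM in the Gata5-/- labelled libraries, 56.6, 63.0, 78.5 and 89.0 CPM in the Gata5+/- labelled libraries, and 74.5, 86.2, 59.9 and 79.1 CPM in wildtype. The 2 lowest of these 12 libraries were Gata5-/- labelled, and the groups overlap. In log2 terms the difference was -0.35 ± 0.18 for Gata5-/- against wildtype, with an edgeR unadjusted p of 0.0667 and an adjusted p of 0.994, and -0.20 without replicate 1 of the Gata5-/- labelled libraries. Fzd4, which also binds the ligand Norrin, had 82.0, 68.6, 38.0 and 88.2 CPM in the Gata5-/- labelled libraries, 75.6, 89.3, 97.7 and 103 CPM in the Gata5+/- labelled libraries, and 103, 66.6, 81.8 and 94.8 CPM in wildtype. Replicate 3 of the Gata5-/- labelled libraries was the lowest, and the other 11 lay between 66.6 and 103 CPM. The lowest of the Gata5+/- labelled libraries was replicate 1, and the lowest of wildtype was replicate 2. In each group the library lowest for Fzd4 also had the lowest heart muscle marker sum. The part of heart muscle in the Fzd4 values was not tested. Fzd4 had a log2 fold change of -0.40 ± 0.20 between both labelled groups and -0.19 without replicate 3 of the Gata5-/- labelled libraries.

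Fzd9 and Fzd10, both under 10 CPM, had the largest positive differences of the receptors for Gata5-/- against wildtype, at 1.24 ± 0.80 and 1.003 ± 0.83 on the log2 scale. Fzd9 averaged 5.77 ± 3.22 CPM in the Gata5-/- labelled libraries, 3.42 ± 1.80 CPM in the Gata5+/- labelled libraries and 2.44 ± 2.52 CPM in wildtype (SD, n = 4 each). The SD of Fzd9 in wildtype was larger than its mean, and its edgeR unadjusted p was 0.136 for Gata5-/- against wildtype. Without wildtype replicate 2, the difference of Fzd9 was 2.27 with an unadjusted p of 0.0163 and an adjusted p no lower than 0.614.

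The co-receptors were among the steadiest of the 41 genes. Lrp6 had 246, 181, 241 and 232 CPM in the Gata5-/- labelled libraries, 236, 247, 226 and 252 CPM in the Gata5+/- labelled libraries, and 239, 239.5, 215 and 231 CPM in wildtype. Its log2 fold change was -0.04 (95% interval -0.28 to 0.21) for Gata5-/- against wildtype, and its standard error, 0.120, was the lowest of the 41. Lrp5 had 168, 122, 175 and 110.4 CPM in the Gata5-/- labelled libraries, 141, 135, 134 and 136 CPM in the Gata5+/- labelled libraries, and 110.4, 130.3, 113 and 119 CPM in wildtype. The Gata5+/- labelled libraries were all above wildtype, while of the Gata5-/- labelled ones replicates 1 and 3 lay above all wildtype libraries and replicates 2 and 4 within or just below their range. Lrp5 had a log2 fold change of 0.21 ± 0.14 for Gata5+/- against wildtype (edgeR adjusted p of 1.0) and 0.28 ± 0.14 for Gata5-/- against wildtype (adjusted p of 0.973).

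The R-spondins were low. Rspo3 averaged 1.69 CPM per kb and Rspo1 averaged 0.871 CPM per kb. Rspo3 had 3.84, 12.6, 1.24 and 6.36 CPM in the Gata5-/- labelled libraries, 9.89, 5.81, 2.92 and 4.12 CPM in the Gata5+/- labelled libraries, and 4.001, 3.002, 5.12 and 3.70 CPM in wildtype. The labelled groups held both the highest and the lowest libraries, so they overlap wildtype on both sides. Rspo1 had 3.14, 0.194, 0 and 3.92 CPM in the Gata5-/- labelled libraries, 0.989, 1.31, 1.21 and 0.388 CPM in the Gata5+/- labelled libraries, and 1.40, 3.89, 0 and 3.80 CPM in wildtype. The log2 fold change for Gata5-/- against wildtype was 0.60 ± 0.63 for Rspo3 and -0.32 ± 1.44 for Rspo1. Without replicate 2 of the Gata5-/- labelled libraries, the value of Rspo3 was -0.05.

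Of the R-spondin receptors, Lgr6 held 80.7% of the summed level per length, at 24.8 CPM per kb, against 5.75 CPM per kb for Lgr4 and 0.185 CPM per kb for Lgr5. Lgr6 had 159, 142, 139.5 and 158 CPM in the Gata5-/- labelled libraries, 124, 177, 181 and 177 CPM in the Gata5+/- labelled libraries, and 179, 195, 156 and 248 CPM in wildtype. The Gata5-/- labelled libraries lay at or below the lower end of wildtype, with overlap at wildtype replicate 3. Lgr6 had a log2 fold change of -0.38 ± 0.15 (95% interval -0.68 to -0.08) for Gata5-/- against wildtype, with an edgeR unadjusted p of 0.0154 and an adjusted p of 0.839. An exact two-sided permutation test over the 8 libraries gave p = 0.0857. Without wildtype replicate 4, the highest library, the difference was -0.25 with an unadjusted p of 0.102. For Gata5+/- against wildtype it was -0.24 ± 0.15, and between both labelled groups -0.14 ± 0.15. The authors' deposited table gives Lgr6 a log2 fold change of -0.35 and an adjusted p of 0.626.

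Lgr4 had 34.3, 38.4, 24.9 and 38.1 CPM in the Gata5-/- labelled libraries, 31.2, 38.0, 30.1 and 44.0 CPM in the Gata5+/- labelled libraries, and 38.2, 22.1, 33.3 and 33.1 CPM in wildtype. The groups overlap almost entirely, and the log2 fold change was 0.10 ± 0.21 for Gata5-/- against wildtype.

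**Figure D3:**
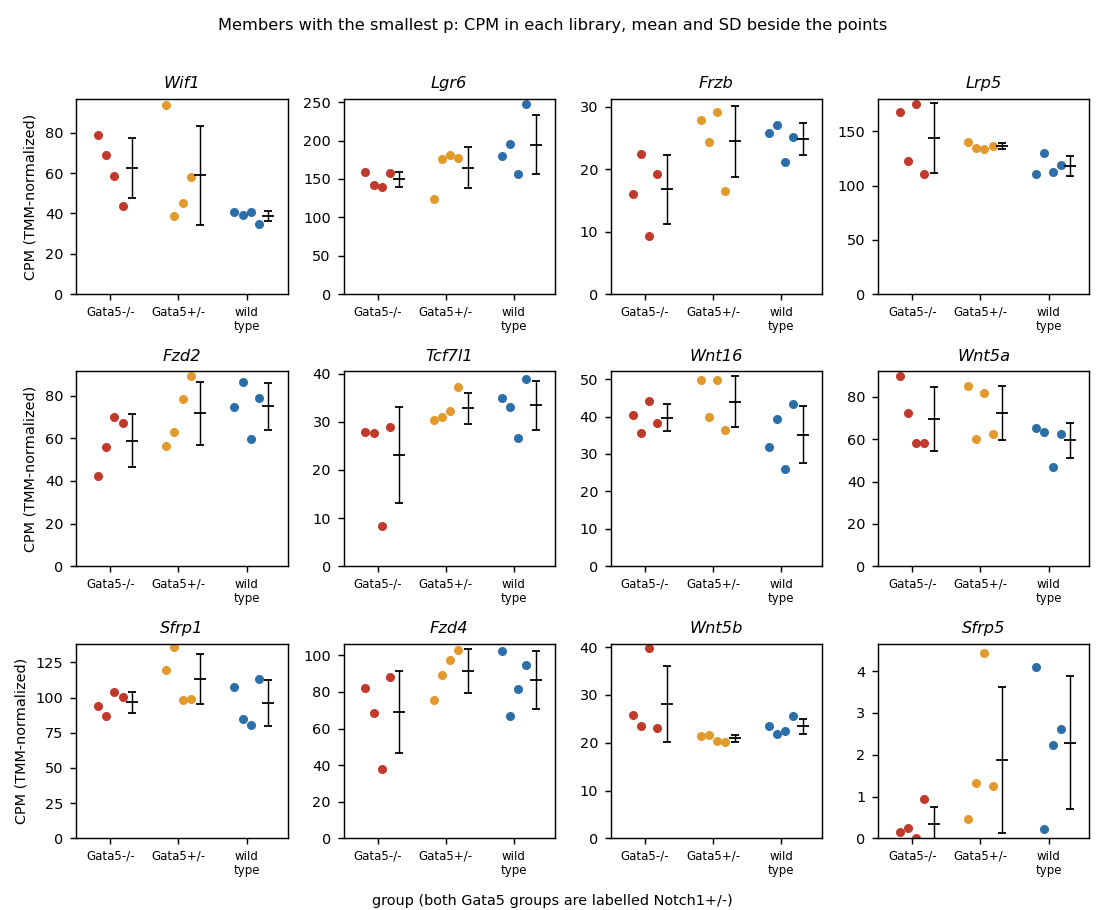
TMM-normalized CPM in each library for the 12 genes with the smallest p in the 3 comparisons, as points, with the mean and SD (n = 4) beside them, on axes that start at 0. Wif1 in the Gata5-/- labelled libraries, at 43.8 to 78.7 CPM, lies above wildtype, at 34.99 to 40.6 CPM, and the single low point of Tcf7l1, at 8.26 CPM, is replicate 3 of the Gata5-/- labelled libraries.

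The secreted antagonists were led by Dkk3, which held 56.8% of their summed level per length at 163 CPM per kb. Dkk3 is a divergent Dkk protein whose action on Wnt signalling depends on the cell. Dkk3 had 643, 498, 497 and 481 CPM in the Gata5-/- labelled libraries, 602, 492, 523 and 546 CPM in the Gata5+/- labelled libraries, and 517, 640.3, 513 and 621 CPM in wildtype. The highest library of each group lay near the highest of the others. On the log2 scale it differed by -0.11 (95% interval -0.36 to 0.14) for Gata5-/- against wildtype and -0.08 (-0.34 to 0.17) for Gata5+/- against wildtype.

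Sfrp2 and Sfrp1, which bind Wnt ligands through a Frizzled-like domain, averaged 69.4 and 23.3 CPM per kb. Sfrp2 had 159, 151, 117 and 155 CPM in the Gata5-/- labelled libraries, 165, 115, 136 and 147 CPM in the Gata5+/- labelled libraries, and 120.5, 194, 145 and 189.6 CPM in wildtype. Only wildtype had libraries above 165 CPM, and the groups overlap. Sfrp1 had 94.4, 87.1, 104 and 101 CPM in the Gata5-/- labelled libraries, 119.6, 136, 98.2 and 99.1 CPM in the Gata5+/- labelled libraries, and 107, 84.4, 80.5 and 113 CPM in wildtype. Sfrp1 had a log2 fold change of 0.003 (95% interval -0.31 to 0.31) for Gata5-/- against wildtype and 0.23 ± 0.15 for Gata5+/- against wildtype.

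Wif1, which binds Wnt ligands through its WIF domain, averaged 21.99 CPM per kb and had the smallest p of the 41 genes. Wif1 had 78.7, 68.7, 58.3 and 43.8 CPM in the Gata5-/- labelled libraries, 93.7, 38.6, 45.2 and 58.2 CPM in the Gata5+/- labelled libraries, and 40.5, 38.98, 40.6 and 34.99 CPM in wildtype. The Gata5-/- labelled libraries were all above wildtype and differed widely among themselves, while 1 Gata5+/- labelled library lay within the wildtype range. The wildtype libraries were close together, at 38.8 ± 2.64 CPM, against 62.4 ± 14.9 CPM with the Gata5-/- label and 58.9 ± 24.5 CPM with the Gata5+/- label (SD, n = 4 each). The log2 fold change was 0.69 ± 0.23 (95% interval 0.21 to 1.16) for Gata5-/- against wildtype, with an edgeR unadjusted p of 0.00652 and an adjusted p of 0.839. The exact two-sided permutation test gave p = 0.0286, the smallest that 4 libraries against 4 can give. Any gene whose groups do not overlap has this p, as Lrp5 and Wnt5b did for Gata5+/- against wildtype, so it restates the lack of overlap. The authors' deposited table gives Wif1 a log2 fold change of 0.72 and an adjusted p of 0.412.

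For Gata5+/- against wildtype the difference of Wif1 was 0.60 ± 0.23 with an edgeR unadjusted p of 0.0147, and 0.29 with an unadjusted p of 0.173 without replicate 1 of the Gata5+/- labelled libraries. Between both labelled groups it was 0.08 (95% interval -0.39 to 0.55). With 1 library of each group left out in turn, the difference for Gata5-/- against wildtype stayed between 0.57 and 0.82, and the adjusted p was no lower than 0.278.

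Markers of cartilage cells differed between libraries as well. The 5 of 6 listed cartilage markers in the count table summed to 895, 627, 641 and 328 CPM in the Gata5-/- labelled libraries, 534, 408, 474 and 434 CPM in the Gata5+/- labelled libraries, and 290.5, 457, 304 and 374 CPM in wildtype. Replicate 1 had the highest cartilage sum and the highest Wif1 in both labelled groups. Replicate 4 with the Gata5-/- label and replicate 2 with the Gata5+/- label had the lowest of both in their groups. In wildtype the lowest sum was that of replicate 1 and the lowest Wif1 that of replicate 4. In wildtype the highest sum was that of replicate 2, whose Wif1 was below that of replicates 1 and 3, and the highest Wif1 of all stood in a library with a lower sum than 3 Gata5-/- labelled ones. No cartilage marker was called, 4 of 5 had a positive log2 fold change for Gata5-/- against wildtype with a median of 0.97, and none was at 0 in all libraries of a group. The part of these markers in the Wif1 values was not tested.

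Frzb, a secreted Wnt-binding protein first found in cartilage, averaged 6.798 CPM per kb. Frzb had 16.0, 22.4, 9.36 and 19.2 CPM in the Gata5-/- labelled libraries, 27.8, 24.4, 29.2 and 16.5 CPM in the Gata5+/- labelled libraries, and 25.8, 27.1, 21.1 and 25.2 CPM in wildtype. Of the Gata5-/- labelled libraries, 3 lay below all wildtype libraries and replicate 2 lay among them. Its fitted log2 difference was -0.56 ± 0.27 (95% interval -1.11 to -0.02) for Gata5-/- against wildtype, with an edgeR unadjusted p of 0.0439 and an adjusted p of 0.897, and a DESeq2 unadjusted p of 0.0647. Without replicate 3 of the Gata5-/- labelled libraries it was -0.36 with an unadjusted p of 0.143. Between both labelled groups it was -0.55 ± 0.27, and -0.35 without that library, while for Gata5+/- against wildtype it was -0.02 ± 0.26.

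Of the markers of other cell types given next, only smooth muscle had sums without overlap between the Gata5-/- labelled libraries and wildtype. The 8 smooth muscle genes summed to 3508 to 4659 CPM in the Gata5-/- labelled libraries, 4766 to 5177 CPM in the Gata5+/- labelled libraries and 5129 to 6935 CPM in wildtype. All 8 had a negative log2 fold change for Gata5-/- against wildtype, with a median of -0.70. In edgeR 3 of the 8 were called, where 5 of the 19346 genes tested were called (0.0258%). Groups without overlap placed 6 of the 8 lower, against 2.0% of all genes. Atrial muscle markers summed to 67.4 to 291 CPM in the Gata5-/- labelled libraries, 67.9 to 502 CPM in the Gata5+/- labelled libraries and 143 to 689 CPM in wildtype. All 6 had a negative log2 fold change for Gata5-/- against wildtype, with a median of -1.47 and none called. Of 4 listed fat cell markers 3 were in the count table, all 3 negative and none called. They summed to 0 to 4.60 CPM in the Gata5-/- labelled libraries and 1.77 to 5.29 CPM in the Gata5+/- labelled libraries. In wildtype they summed to 27.5 CPM in replicate 2 and to 1.25 to 7.29 CPM in the others. General heart muscle markers were positive for 10 of 10 genes with a median of 0.16, none called. The part of these cells in the values of the 41 genes, Wif1, Lgr6, Frzb and Sfrp5 among them, was not tested.

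The remaining antagonists, Dkk2, Sfrp5 and Sfrp4, averaged 0.884, 0.789 and 0.558 CPM per kb. Sfrp5 had 0.14, 0.259, 0 and 0.95 CPM in the Gata5-/- labelled libraries, 0.468, 1.31, 4.43 and 1.26 CPM in the Gata5+/- labelled libraries, and 4.10, 0.235, 2.22 and 2.603 CPM in wildtype. The Gata5-/- labelled libraries were low throughout, but the Gata5+/- labelled and wildtype groups each had a library below 0.5 CPM. The fitted log2 fold change of Sfrp5 was -2.72 ± 1.45 for Gata5-/- against wildtype, with an edgeR unadjusted p of 0.0735 and an exact permutation p of 0.0857. DESeq2 gave Sfrp5 an unadjusted p of 0.0175 and an adjusted p of 0.585 in this comparison. Of the 8 antagonists, 6 had a negative log2 fold change in this comparison, with a median of -0.21, and 5 had one for Gata5+/- against wildtype, with a median of -0.05.

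Of the scaffolds of the β-catenin destruction complex, Axin1 averaged 9.85 CPM per kb and Axin2, itself a feedback target of canonical signalling, 3.75 CPM per kb. Axin1 had 43.4, 35.1, 46.8 and 45.9 CPM in the Gata5-/- labelled libraries, 28.7, 38.5, 36.5 and 34.9 CPM in the Gata5+/- labelled libraries, and 38.2, 20.8, 35.5 and 48.2 CPM in wildtype. Wildtype covered a wider range than either labelled group. Axin2 had 30.0, 17.6, 26.3 and 19.0 CPM in the Gata5-/- labelled libraries, 29.5, 11.0, 21.3 and 18.2 CPM in the Gata5+/- labelled libraries, and 16.7, 30.1, 17.8 and 9.91 CPM in wildtype. Its log2 fold change was 0.32 (95% interval -0.34 to 0.98) for Gata5-/- against wildtype, which was 0.67 without wildtype replicate 2 and 0.11 without wildtype replicate 4. For Gata5+/- against wildtype it was 0.10 ± 0.32.

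Of the Tcf/Lef factors, Tcf7l1, which acts largely as a repressor, averaged 7.59 CPM per kb, and Tcf7l2, Tcf7 and Lef1 averaged 3.17, 1.53 and 0.832 CPM per kb. Tcf7l1 had 27.9, 27.7, 8.26 and 28.9 CPM in the Gata5-/- labelled libraries, 30.4, 31.0, 32.3 and 37.3 CPM in the Gata5+/- labelled libraries, and 35.02, 33.1, 26.6 and 38.9 CPM in wildtype. Replicate 3 of the Gata5-/- labelled libraries stood far below all others, and the other 3 of that group lay just below the Gata5+/- labelled range. In log2 terms the difference was -0.52 ± 0.28 for Gata5-/- against wildtype, with an edgeR adjusted p of 0.9997, and -0.24 without that library. Between both labelled groups it was -0.50 ± 0.28, and -0.21 without that library.

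Tcf7l2 had 18.3, 31.97, 22.4 and 25.8 CPM in the Gata5-/- labelled libraries, 34.9, 28.4, 24.8 and 29.6 CPM in the Gata5+/- labelled libraries, and 27.9, 36.5, 28.8 and 24.4 CPM in wildtype. Lef1, also a reported target of the pathway, had 11.0, 4.47, 9.36 and 3.39 CPM in the Gata5-/- labelled libraries, 6.45, 5.66, 6.04 and 6.503 CPM in the Gata5+/- labelled libraries, and 4.26, 20.7, 2.95 and 6.96 CPM in wildtype. Both genes overlapped between groups, and wildtype replicate 2 was the highest library for each. The log2 fold change of Lef1 for Gata5-/- against wildtype was -0.30 ± 0.54, and 0.60 without wildtype replicate 2. All 4 Tcf/Lef genes had a negative log2 fold change in this comparison, with a median of -0.41, none of them called.

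**Figure D4:**
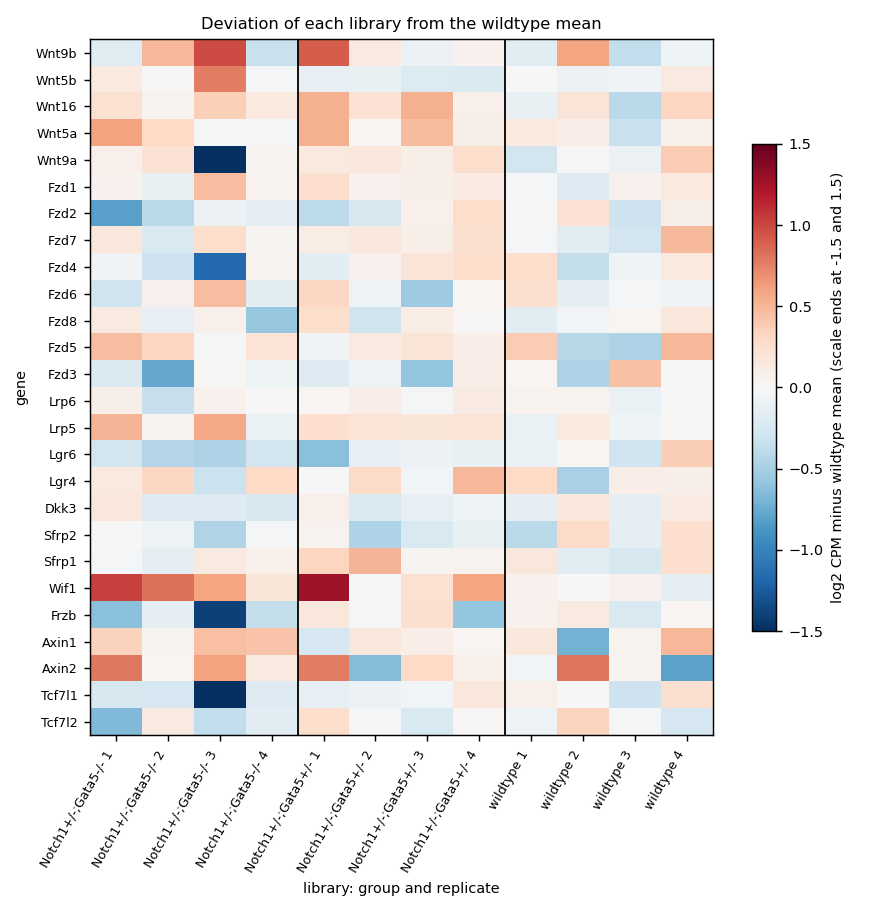
Log2 CPM of each library minus the wildtype mean for the 26 genes averaging at least 10 CPM, with the 12 libraries as columns by group. Replicate 3 of the Gata5-/- labelled libraries has the strongest colours, with a median absolute deviation of 0.45, and in the row of Wif1 the libraries with a strong positive colour are all in the labelled groups.

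Single libraries differed in how far they lay from the wildtype mean. Each wildtype library is part of that mean, so its distance tends by construction to be smaller than that of a labelled library. Over the 26 genes averaging at least 10 CPM, the median absolute deviation from the wildtype mean was 0.45 on the log2 scale in replicate 3 of the Gata5-/- labelled libraries and 0.107 to 0.251 in the other 11. In that library 4 of the 26 genes (Wnt9a, Fzd4, Frzb and Tcf7l1) deviated by more than 1, all of them downward, compared with 0 or 1 in every other library. Wif1 was the gene in the 2 libraries that had 1. The pooled SD of log2 CPM within groups was smallest for Lrp6, Dkk3 and Fzd1, at 0.13, 0.17 and 0.17, and largest for Wnt7a and Rspo1, at 2.53 and 2.49.

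Beyond the 41 genes, 99 other genes of Wnt secretion, reception and signalling were listed, of which 92 were tested and 0 called in any comparison by edgeR or DESeq2. At an edgeR unadjusted p under 0.05, 4 were higher and 4 lower for Gata5-/- against wildtype, where 2.04% of all genes were higher and 3.36% lower. The counts for Gata5+/- against wildtype were 1 higher and 0 lower, against 0.806% and 0.445% of all genes, and between both labelled groups 3 were higher and 1 lower, against 1.1% and 2.08%. The median log2 fold change was -0.024 for Gata5-/- against wildtype (-0.035 over all genes), -0.012 for Gata5+/- against wildtype (0.002 over all genes) and -0.024 between both labelled groups (-0.042 over all genes). The smallest p for Gata5-/- against wildtype belonged to Shisa2, whose frog relative holds Frizzled proteins inside the cell. Shisa2 had 26.4, 13.9, 24.2 and 9.58 CPM in the Gata5-/- labelled libraries, against 7.22, 12.2, 8.01 and 8.31 CPM in wildtype. Shisa2 had a log2 fold change of 1.05 ± 0.36 in this comparison and 1.09 ± 0.36 against Gata5+/-, with edgeR adjusted p of 0.839 and 1.0, and its groups overlap.

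Daam2, a formin that binds Dishevelled, had 71.0, 49.1, 55.5 and 49.96 CPM in the Gata5-/- labelled libraries, against 46.8, 40.01, 39.7 and 32.9 CPM in wildtype, without overlap. Its log2 fold change was 0.50 ± 0.17 and that of Ccn4, a matricellular gene reported as induced by Wnt signalling, was 0.59 ± 0.21, both with an edgeR adjusted p of 0.839. For Gata5+/- against wildtype the smallest p were those of the co-receptor Ptk7 at 0.39 ± 0.19, the glypican Gpc6 at -0.30 ± 0.15 and the heparan sulfate sulfatase Sulf2 at -0.24 ± 0.13. Between both labelled groups, Gsk3a, a kinase of the destruction complex, was at -0.76 ± 0.28 without overlap, and Vangl2, a planar polarity gene, at 0.81 ± 0.33. Vangl2 had 37.4 CPM in replicate 3 of the Gata5-/- labelled libraries and 11.9 to 17.5 CPM in the other 3.

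Wnt7b, Wnt10b, Wnt8b and Rspo2 were in the count table without a symbol in the authors' table, so the rule does not hold them. They averaged 0.272, 0.853, 0.489 and 0.781 CPM and were at 0 in 6, 3, 7 and 5 of the 12 libraries. Of the 41 genes, 6 (Wnt5a, Fzd6, Lef1, Sfrp2, Fzd5 and Tcf7l1) have exons that overlap a counted gene on the opposite strand. The sources used here do not say whether strand was counted, so reads of these pairs cannot be told apart.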

How the data were processed

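The authors deposited raw counts per gene and library. Their other deposited file gives per gene the mean normalized signal, the log2 fold change, 2 scores (its standard error and a Wald statistic), and the p-value before and after adjustment. That file names no comparison, and its fold changes match a DESeq2 refit of Gata5-/- against wildtype within 0.0001655. The submitters' processing notes name Trim Galore, STAR 2.7.10b, the build GRCm39 and DESeq2 1.34.0. The counting tool and its strand setting are not stated there.

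The main test was edgeR 4.0.16 in R 4.3.3 on the counts (filterByExpr, 19346 genes kept and 1274 removed, TMM, robust quasi-likelihood F test, a term per group over all 12 libraries). Benjamini-Hochberg adjustment ran over every gene tested, with a threshold of 0.05. The replicate is a pool of 3 valves, so p-values measure the spread between pools. The common biological coefficient of variation was 0.68. Standard errors are the log2 fold change over the root of F, and intervals are at 95%. Exact permutation tests used log2 CPM with a prior count of 1 over all 70 splits. Exon lengths came from a GENCODE annotation of GRCm38. Floors of 3 counts cover counting error only. The fit was also run on simulated counts with large differences and a smaller spread between libraries than in these data. That run does not show what size of difference could be found here.

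Values per library are given for members called or marked (none), for the 6 smallest p in each comparison with a mean of at least 1 CPM, for the 2 highest per length in each role, and for Axin2 and Lef1. Of other pathway genes, the 3 smallest p per comparison are named. Other genes named were chosen after their values were seen. The members and lists were chosen with earlier results of these data known. Alternatives were RLE and upper-quartile scaling, no filter, a stricter filter (1 CPM in 4 libraries), DESeq2 1.42.0, limma 3.58.1 with voom, 8 libraries only, a replicate block, libraries left out, and the authors' thresholds (adjusted p under 0.1, absolute log2 fold change over 0.58).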

Additional observations from a re-analysis of the deposited data

Results flagged for a closer look

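Of 72 pairs of a named gene and a group, 6 held a library far from the other 3 by Dixon's criterion, which chance alone meets in about 1 group in 20. In the Gata5-/- labelled libraries, replicate 3 was the lowest for Tcf7l1 at 8.26 CPM and the highest for Wnt5b at 39.8 CPM, and replicate 1 was the highest for Dkk3 at 643 CPM. In the Gata5+/- labelled libraries, replicate 1 was the lowest for Lgr6 at 124 CPM and the highest for Wnt9b at 80.9 CPM. In wildtype, replicate 3 was the lowest for Wnt5a at 46.9 CPM.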

How the results depend on the processing

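None of the 41 genes was called under any of the 66 settings and comparisons tried, with a lowest adjusted p of 0.278 among the named genes. The 18 differences named for the smallest p in each comparison kept their direction in all 378 alternatives. They were picked for a small p in these same libraries, so a kept direction was likely from the start. Over all 3 comparisons of the 24 named genes, however, 26 of 72 differences changed sign with some library left out, among them Lef1 (-0.30 for Gata5-/- against wildtype, and 0.60 without wildtype replicate 2) and Rspo3 (0.60 in that comparison, and -0.05 without replicate 2 of the Gata5-/- labelled libraries). The median log2 fold change of the 41 genes moved by less than the SD between libraries, 0.091, in 63 of 63 alternatives. Over all genes, 5 were called for Gata5-/- against wildtype, but 49 by DESeq2, 0 with only the 8 libraries compared, 2 without both libraries that stand apart, 8 at the authors' thresholds, and 2 to 21 with 1 library left out. Of these, 2 were called without wildtype replicate 2, 3 without replicate 1 of the Gata5-/- labelled libraries and 21 without its replicate 4. For Gata5+/- against wildtype 0 were called, but 8 by DESeq2. Between both labelled groups 0 were called, but 13 by DESeq2, 2 without both libraries that stand apart, and 0 to 1 with 1 library left out. The cause was not tested.

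Counts of the 41 genes at an unadjusted p under 0.05 were added after seeing the data. For Gata5-/- against wildtype there were 3 (7.32%, against 5.4% of all genes tested), but 5 without both libraries (12.2%, against 5.41%) and 2 to 8 with 1 library left out. The 8 were without replicate 4 of the Gata5-/- labelled libraries (19.5%, against 8.99% of all genes), and without wildtype replicate 2 there were 6 (14.6%, against 5.06%). For Gata5+/- against wildtype there was 1 (2.44%, against 1.25% of all genes), and 0 to 3 with 1 library left out (3 without wildtype replicate 4, 7.32% against 2.09%; 0 without replicate 1 of the Gata5+/- labelled libraries). Between both labelled groups there were 0 (against 3.18% of all genes), but 2 without both libraries (4.88%, against 3.9%), 1 by DESeq2 (2.44%, against 4.11%) and 0 to 4 with 1 library left out (4 without replicate 4 of the Gata5-/- labelled libraries, 9.76% against 7.07%). These counts rest on few genes, and no test of the difference in share was made. Same-numbered libraries of different groups correlated at -0.0368 to 0.0831 in their deviations over all genes tested. Of the 12 libraries, 4 correlated best with a library of their own number. Whether the replicate numbers pair the libraries was not tested. With a replicate block, 7, 0 and 0 genes were called in the 3 comparisons, 0 of the 41 in each, and 5, 1 and 3 of the 41 had an unadjusted p under 0.05 (12.2%, 2.44% and 7.32%, against 5.13%, 1.38% and 3.28% of all genes). In a library at 0 counts, levels under 0.12 to 0.216 CPM were not detectable.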
